A study of Rattus norvegicus with 60 samples.

Results

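The 10 genes described here build, tag, sense and move bile acids in the rat liver: Cyp7a1, Cyp8b1, Cyp27a1, Cyp7b1, Slc27a5, Baat, Nr1h4, Nr0b2, Slc10a1 and Abcb11. They were taken by symbol from count files that list 34322 genes, and all 10 passed the filter on low counts in liver. Livers came from Sprague-Dawley rats aged 5 months. Their mothers spent 12 days of pregnancy, gestational days 8 to 20, in chambers with vaporised ethanol (PAE, for prenatal alcohol exposure) or with room air (control). In stroke animals the middle cerebral artery was occluded, which models ischaemic stroke, 2 days before tissue was taken, and naive animals were littermates without stroke. The 30 liver libraries comprised 7 control naive, 7 control stroke, 8 PAE naive and 8 PAE stroke animals, of which 4 per group were females and the others (3 per control group, 4 per PAE group) males. The labels describe no sham operation, so a stroke comparison covers the whole procedure. They give neither litter nor hour of dissection. Animals were fitted as independent although some were littermates, so p-values measure the spread between these animals and not between litters.

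Bile acids are made from cholesterol in hepatocytes. The classic pathway starts with Cyp7a1 and the alternative pathway with Cyp27a1 and Cyp7b1, while Cyp8b1 sets how much of the product becomes cholic acid. Slc27a5 and Baat join bile acids to coenzyme A and then to glycine or taurine, Abcb11 exports them into bile, and Slc10a1 takes them back from portal blood. The nuclear receptor encoded by Nr1h4 (FXR) binds bile acids and raises Nr0b2 (SHP), a repressor of Cyp7a1 and Cyp8b1. In rodents Cyp7a1 mRNA also follows feeding and the time of day.

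Promoters of 6 of the 10 genes, Cyp27a1, Cyp8b1, Slc27a5, Baat, Nr0b2 and Slc10a1, were present in the RefSeq promoter table of assembly GRCr8. The 250 bases before the gene start are printed for a target of the feedback loop (Cyp8b1, chr8:130457593-130457842, minus strand), its repressor (Nr0b2, chr5:151062910-151063159, plus strand) and the uptake carrier (Slc10a1, chr6:106357945-106358194, minus strand), since the results below describe each of them by sex. Capitals mark matches to CAAGGNCA (the site of the nuclear receptor NR5A2), CACGTG (an E-box) or TCANTGAC (the core of the inverted repeat bound by FXR), searched on both strands.
Cyp8b1: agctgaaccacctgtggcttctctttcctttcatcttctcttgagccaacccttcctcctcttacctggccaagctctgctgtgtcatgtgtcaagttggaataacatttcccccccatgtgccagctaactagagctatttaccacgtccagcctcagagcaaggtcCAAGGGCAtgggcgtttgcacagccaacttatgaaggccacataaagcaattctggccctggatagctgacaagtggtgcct
Nr0b2: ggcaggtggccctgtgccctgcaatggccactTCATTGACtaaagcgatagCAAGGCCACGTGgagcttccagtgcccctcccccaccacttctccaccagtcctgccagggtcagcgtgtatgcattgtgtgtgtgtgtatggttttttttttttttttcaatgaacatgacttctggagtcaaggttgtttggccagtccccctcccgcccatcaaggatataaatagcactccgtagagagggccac
Slc10a1: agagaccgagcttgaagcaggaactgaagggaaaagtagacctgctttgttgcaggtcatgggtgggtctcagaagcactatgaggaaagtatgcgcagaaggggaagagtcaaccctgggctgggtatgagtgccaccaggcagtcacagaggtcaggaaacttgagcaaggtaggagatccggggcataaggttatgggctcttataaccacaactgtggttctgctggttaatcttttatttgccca

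CAAGGNCA was present in 3 of the 6 promoters (Cyp27a1, Cyp8b1 and Nr0b2) and in 5.58% of the 33469 promoters of the table. In Cyp8b1 the match ran from -82 to -75 relative to the gene start. In Nr0b2 it ran from -199 to -192 and overlapped the E-box at -193 to -188, and the inverted repeat core lay at -218 to -211. CACGTG was found in 5.59% and TCANTGAC in 2.78% of all promoters, and among the 6 only in Nr0b2. The printed Slc10a1 window held none of these letters, and a match is a description, not a binding site.

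Raw counts per liver library summed to 7.72 M to 30.4 M (M, mega; median 17.4 M), and nuclear ribosomal RNA took 0.626% to 51.1% of them. It took over 40% in 3 libraries, all male: control naive male 3, control stroke male 1 and PAE stroke male 2. In control stroke males it took 51.1%, 17.9% and 28.7%, and in PAE stroke males 1.28%, 42.4%, 2.14% and 1.09%. Hepatocyte markers were abundant throughout, with Alb at 33628 CPM or more in every liver (CPM, counts per mega-count after TMM scaling of the library size) and the 8 markers summing to 82962 to 147950 CPM. Of 4 neutrophil markers tested, 4 were higher in stroke livers, but their summed level was low, at 0.49 to 1.99 CPM in naive and 1.81 to 7.31 CPM in stroke livers, with S100a8 at 0 in 13 libraries. No Kupffer cell, endothelial or cholangiocyte marker passed the edgeR test for stroke (1, 1 and 0 at an unadjusted p under 0.05). Of 5 stellate cell and fibroblast markers 2 were higher after stroke, Dcn (log2 0.80) and Rgs5 (1.04), and Lrat (-0.30) was lower, with sums of 214 to 547 CPM in naive and 193 to 515 CPM in stroke livers. Of the 8 hepatocyte markers 3 were higher, Serpina1 (0.69), Tf (0.33) and Ahsg (0.26), and Cyp2e1 (-0.79) was lower, with sums of 82962 to 126026 CPM in naive and 88198 to 147950 CPM in stroke livers. Of all genes tested 14.4% passed for stroke (8.55% higher and 5.84% lower). The part of the cell type markers in the stroke results was not tested. In bulk tissue, fewer cells of a type and less RNA per cell cannot be told apart. The members' counts ranged from 21 (Cyp7b1) to 44679 (Slc27a5), so counting error was largest for Cyp7b1 and Nr0b2.

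**Figure D1:**
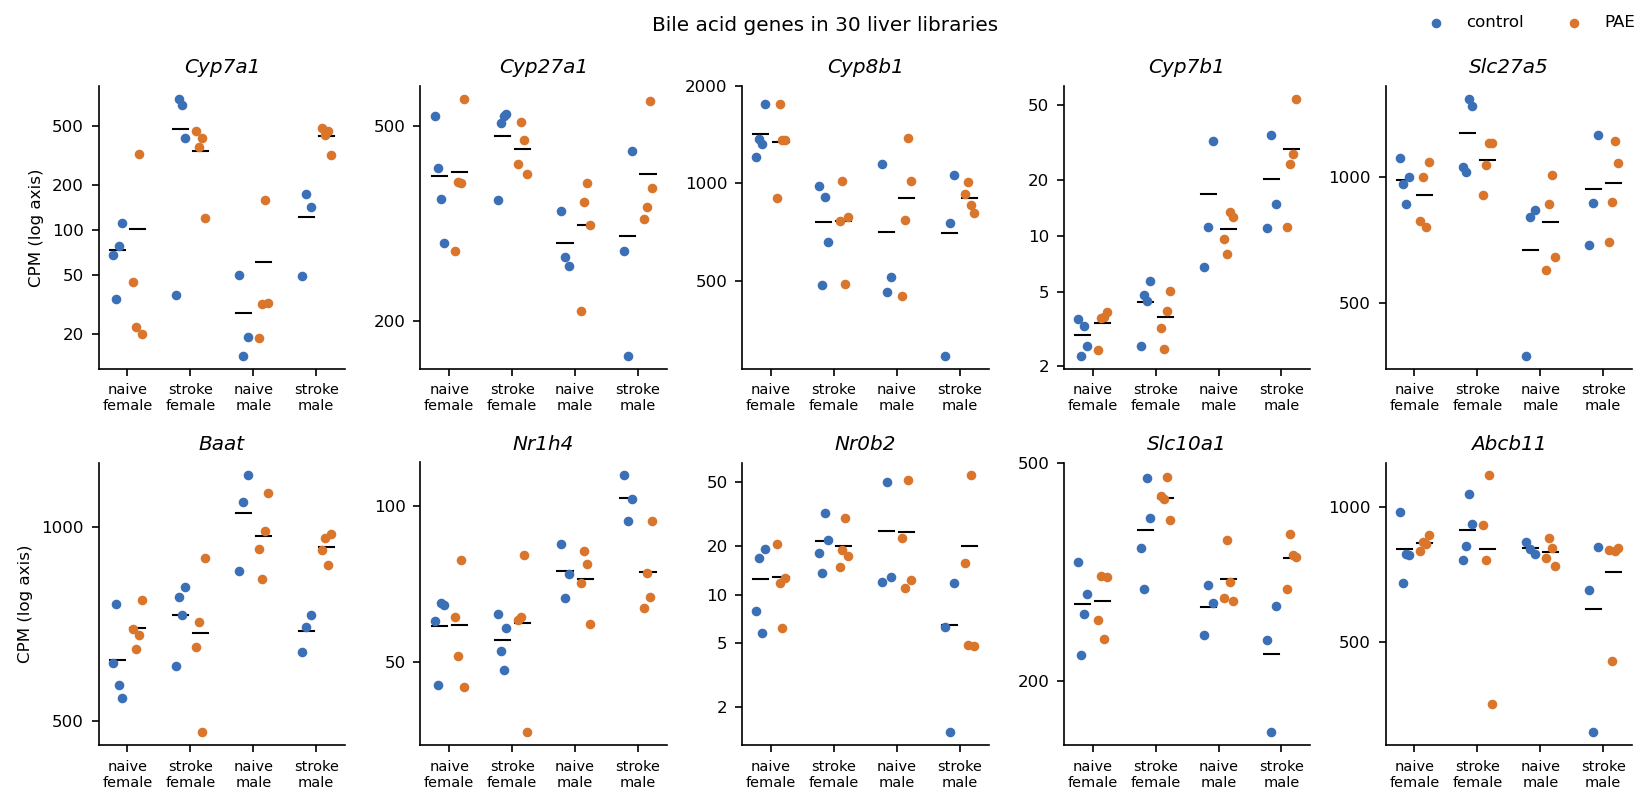
Level of each of the 10 genes in every liver library (y axis, CPM, logarithmic), by stroke state and sex (x axis), with controls in blue, PAE in orange and a bar at the mean of each group. Cyp7a1 ranged from 14.4 to 760 CPM and was mostly higher after stroke, whereas Cyp7b1 separated males from females.

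Stroke was compared with the naive state over both exposures and sexes to ask how the liver's bile acid genes stood 2 days after occlusion. Of the 10 genes 2 were higher, Cyp7a1 and Slc27a5, and none was lower, where 14.4% of the 15889 liver genes tested passed (8.55% higher and 5.84% lower). Cyp7a1, the rate-limiting enzyme of the classic pathway, was 5.07-fold higher. Among the 10 genes 6 had a positive change, and their median log2 change was 0.16, against -0.0083 over all genes tested. Calls were made at an adjusted p under 0.05 (edgeR quasi-likelihood test, Benjamini-Hochberg over all genes tested).

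In naive control females Cyp7a1 stood at 68.2, 34.4, 77.9 and 112 CPM, and in naive control males at 50.1, 14.4 and 19.1 CPM. Naive PAE females gave 45.1, 22.3, 323 and 20.1 CPM, and naive PAE males 18.9, 31.9, 160 and 32.5 CPM. In each naive PAE group 1 animal, numbered 3 in both, held the highest level, and the other 3 of its group stayed at or below 45.1 CPM. Control females after stroke gave 36.9, 760, 695 and 415 CPM, and control males 49, 174 and 144 CPM. PAE females after stroke gave 465, 361, 417 and 121 CPM, and PAE males 486, 434, 460 and 319 CPM. The 4 PAE stroke males lay above every naive male. Control stroke female 1, control stroke male 1 and PAE stroke female 4 lay within the naive range of their exposure and sex. The log2 change was 2.34 ± 0.464 (SE; 95% interval 1.38 to 3.3; edgeR adjusted p = 0.00131), and 14 of the 15 stroke livers exceeded the mean of naive livers of the same exposure and sex.

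Cyp7a1 also varied more within groups than most liver genes. Its within-group SD was 1.28 on the log2 CPM scale, above that of 99.5% of the 11396 genes whose mean log2 CPM was 1 or more. Nr0b2 had an SD of 1.04 (above 98.8%), while Baat (0.207) and Slc10a1 (0.219) were among the steadier genes (above 14.2% and 18.1%). Clock genes varied between these livers too: Dbp ranged from 2.63 to 37.5 CPM in naive and from 2.95 to 44.5 CPM in stroke livers. Dbp was high in all 4 PAE stroke males (42.7, 28.3, 44.3 and 21 CPM) and in control stroke females 1 and 2 (44.5 and 43.9 CPM). It was lower in control stroke males (4.68, 5.83 and 3.3 CPM) and in PAE stroke females (4.28 to 9.13 CPM). Of 15 clock genes tested 3 were higher after stroke, where 8.55% of all genes were, namely the repressors Per2 (log2 change 0.94 ± 0.235 SE, edgeR adjusted p = 0.00769), Cry2 (0.59 ± 0.133, adjusted p = 0.00278) and Bhlhe40 (0.89 ± 0.193, adjusted p = 0.00236). Their part in the change of Cyp7a1 was not tested.

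The other genes of synthesis did not pass in this comparison. Cyp8b1 had a log2 change of -0.44 ± 0.178 (SE; edgeR adjusted p = 0.102), Cyp7b1 of 0.61 ± 0.226 (adjusted p = 0.069) and Cyp27a1 of 0.21 ± 0.131 (adjusted p = 0.32). Cyp7b1 passed when control naive male 3 was left out (log2 0.82, edgeR adjusted p = 0.00841) or when the 3 libraries rich in ribosomal RNA were (0.93, adjusted p = 0.00375). That naive animal held 32.1 CPM of Cyp7b1, against 6.83 and 11.2 CPM in the other control naive males. In males alone the change of Cyp7b1 was 0.88 ± 0.321 (SE; edgeR adjusted p = 0.109), and it ran from 0.55 without control stroke male 2 (adjusted p = 0.414) to 1.31 without control naive male 3 (adjusted p = 0.0133). Cyp27a1 ran from 209 to 569 CPM (median 350.4) in naive and from 170 to 563 CPM (median 420) in stroke livers, so the 2 states covered nearly the same range.

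Of the 2 conjugation genes, Slc27a5, the coenzyme A ligase, rose by a factor of 1.29 (log2 0.36 ± 0.123 SE, edgeR adjusted p = 0.0435). Its level ran from 373 to 1111 CPM (median 862) in naive livers and from 687 to 1543 CPM (median 1072) in stroke livers, so the groups overlapped widely. The call held in 14 of 30 fits that each left out 1 library. Baat, the amino acid transferase, had a log2 change of -0.11 ± 0.0853 (adjusted p = 0.423).

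Neither the receptor nor the repressor passed. Nr1h4 changed by log2 0.11 ± 0.099 (SE; edgeR adjusted p = 0.52), which leaves an interval of -0.092 to 0.31. For Nr0b2 the change was -0.19 ± 0.372 (adjusted p = 0.794), with an interval of -0.96 to 0.57. The receptor gene stood at 84.4, 66.4 and 73.8 CPM in naive control males and at 115, 93.6 and 103 CPM in control stroke males, without overlap, whereas PAE males overlapped (59.2 to 81.9 and 63.7 to 93.5 CPM). Here and below, small groups without overlap are described only. How many of all genes tested separate in this way was not counted. In control stroke males nuclear ribosomal RNA took 17.9% to 51.1% of counts, and its part in these separations was not tested.

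The bile export pump Abcb11 had a log2 change of -0.12 ± 0.132 (adjusted p = 0.601) and the uptake carrier Slc10a1 of 0.23 ± 0.0864 (adjusted p = 0.0724). Abcb11 ran from 676 to 974 CPM (median 806) in naive livers and from 314 to 1178 CPM (median 800.03) after stroke. Its 3 lowest levels were all in stroke livers, at 314 CPM in control stroke male 2, 363 CPM in PAE stroke female 4 and 453 CPM in PAE stroke male 2.

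**Figure D2:**
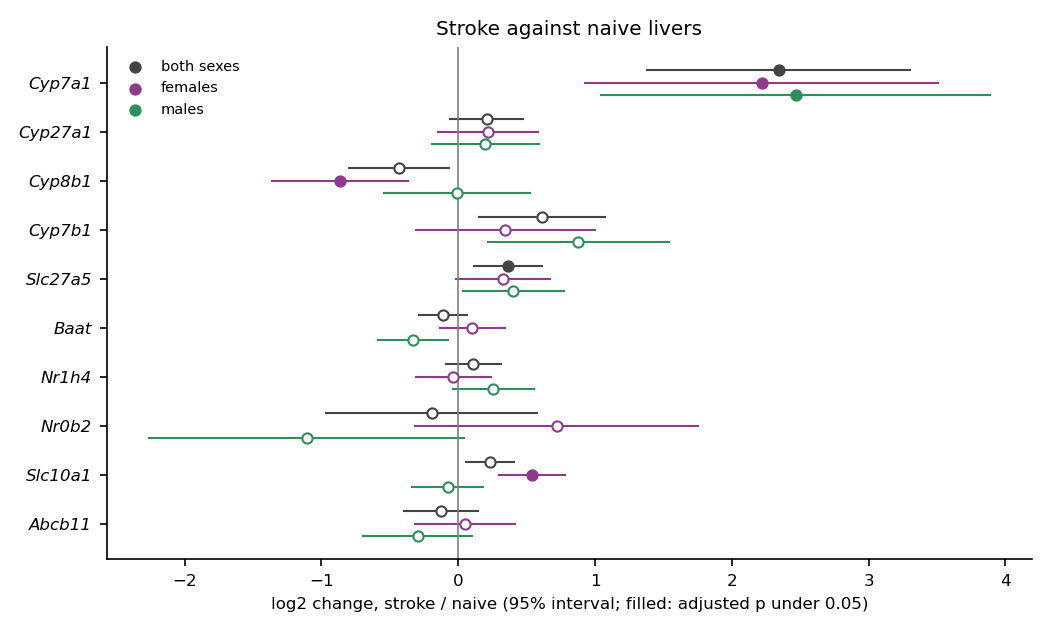
Log2 change of each of the 10 genes in stroke against naive livers (x axis), with points at the estimate and lines for the 95% interval, and filled points at an edgeR adjusted p under 0.05. Cyp7a1 had a positive change of more than 2 in each comparison shown, while Cyp8b1 and Slc10a1 passed in opposite directions in females.

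Within females 3 genes passed, where 5.93% of all genes tested did (4.07% higher and 1.86% lower). Cyp7a1 (log2 2.22 ± 0.624 SE, edgeR adjusted p = 0.037) and Slc10a1 (0.54 ± 0.118, adjusted p = 0.00548) were higher and Cyp8b1 (-0.86 ± 0.243, adjusted p = 0.033) was lower. Slc10a1 held its call in 30 of 30 fits that each left out 1 library and in 7 of 7 other settings. Cyp7a1 held it in 20 of those 30 fits and in 5 of the 7 settings, and lost it without the filter on low counts (edgeR adjusted p = 0.0644) and in the fit on the groups compared (0.0883).

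Slc10a1 in females stood at 330, 223, 265 and 289 CPM in naive controls and at 349, 294, 468 and 396 CPM in control stroke animals. Naive PAE females gave 258, 311, 239 and 309 CPM, and PAE stroke females 434, 429, 471 and 393 CPM. All 4 PAE stroke females lay above all 8 naive females, whereas 1 control stroke female lay within the naive range.

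Cyp8b1, which directs synthesis towards cholic acid, stood at 1206, 1375, 1323 and 1758 CPM in naive control females and at 978, 485, 909 and 658 CPM after stroke. In PAE females the values were 901, 1762, 1363 and 1359 CPM in the naive state and 762, 1015, 489 and 784 CPM after stroke. In controls the groups did not overlap, and in PAE females the lowest naive animal lay below the highest stroke animal. The call was lost without the filter on low counts (edgeR adjusted p = 0.0563) and held in 23 of 30 fits without 1 library.

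Within males 1 gene passed, Cyp7a1 (log2 2.47 ± 0.686 SE, edgeR adjusted p = 0.0334), where 5.75% of all genes tested did (3.4% higher and 2.35% lower). That call was lost without the libraries over 40% ribosomal RNA (log2 2.56, adjusted p = 0.113). Cyp8b1 had a log2 change of -0.0093 ± 0.26 in males (interval -0.54 to 0.52) and Slc10a1 of -0.078 ± 0.127 (interval -0.34 to 0.18).

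Nr0b2, the repressor, stood at 11.9, 50.1 and 12.9 CPM in naive control males and at 6.3, 1.4 and 11.8 CPM in control stroke males. PAE males gave 22.4, 10.9, 51.7 and 12.4 CPM in the naive state and 15.8, 4.88, 55 and 4.82 CPM after stroke. The control male groups did not overlap by a narrow margin, and PAE stroke male 3 held the highest level of all livers. The change in males was -1.11 ± 0.558 (edgeR adjusted p = 0.278), and it ran from -1.73 without that animal (adjusted p = 0.0449) to -0.60 without control naive male 2 (adjusted p = 0.65). In females Nr0b2 had a log2 change of 0.72 ± 0.499 (adjusted p = 0.468), with 8 of 8 stroke animals above the naive mean of their exposure.

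Baat stood at 855, 1094 and 1202 CPM in naive control males and at 640, 700 and 732 CPM in control stroke males, with no overlap. PAE males overlapped, at 925, 832, 985 and 1130 CPM in the naive state and 920, 963, 872 and 974 CPM after stroke. Over both exposures the change in males did not pass, at -0.33 ± 0.125 (edgeR adjusted p = 0.122).

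Whether females and males responded differently to stroke was tested directly, and 0 of the 10 genes passed with edgeR or DESeq2 (0.126% of all genes with edgeR, 0.0566% with a more positive and 0.0692% with a more negative response in males). At an unadjusted p under 0.05 there were 4 of the 10 genes, and 1158 of the 15889 genes tested. The male minus female difference was -0.62 ± 0.173 for Slc10a1 (SE; edgeR adjusted p = 0.208), -0.43 ± 0.171 for Baat (0.57), -1.83 ± 0.748 for Nr0b2 (0.596) and 0.85 ± 0.355 for Cyp8b1 (0.6). For Cyp7a1 it was 0.25 ± 0.882, with an interval of -1.58 to 2.08. The responses of these genes were therefore not shown to differ between females and males.

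Stroke was also compared within each exposure. In controls 0 of the 10 genes passed with edgeR and 1, Cyp7a1, with DESeq2, where 2.95% of all genes passed with edgeR (2% higher and 0.95% lower). At an unadjusted p under 0.05 there were 2 of the 10 and 2528 of the 15889 genes tested. Cyp7a1 had a log2 change of 2.42 ± 0.684 in controls (SE; edgeR adjusted p = 0.0578, DESeq2 adjusted p = 0.00545), and its call was gained without control stroke female 1 (log2 2.61, edgeR adjusted p = 0.0255). It was also gained without PAE animals, which are not part of this contrast but share its estimate of the spread. These were PAE naive females 2, 3 and 4, PAE naive male 3 and PAE stroke female 4 (edgeR adjusted p from 0.0212 to 0.0491).

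In PAE animals Cyp7a1 (log2 2.27 ± 0.626 SE, edgeR adjusted p = 0.0292) and Slc10a1 (0.38 ± 0.117, adjusted p = 0.0471) were higher, where 7% of all genes passed (4.74% higher and 2.26% lower). In those animals 8 of 8 stroke livers exceeded the mean of naive livers of the same sex for Cyp7a1 and 7 of 8 for Slc10a1. The call of Slc10a1 held in 11 of 30 fits without 1 library and that of Cyp7a1 in 24. With a replicate block Slc10a1 did not pass (log2 0.38, edgeR adjusted p = 0.0692). The response in PAE animals minus that in controls was -0.15 ± 0.882 for Cyp7a1 (interval -1.97 to 1.68) and 0.3 ± 0.173 for Slc10a1 (interval -0.058 to 0.65). By this test 0 of the 10 genes passed with edgeR or DESeq2, 0 had an unadjusted p under 0.05 (455 of the 15889 genes tested did), and 0% of all genes passed with edgeR.

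The levels of the 10 genes in PAE and control livers were compared in the naive state, after stroke and over both. With edgeR and with DESeq2 0 of the 10 genes passed in each of these comparisons, where edgeR called 0% of all genes in naive, 0% in stroke and 0.0126% in both states. At an unadjusted p under 0.05 there were 0 of the 10 in naive livers and 1, Slc10a1, in stroke livers and over both states, against 347, 1030 and 866 of the 15889 genes tested in naive livers, in stroke livers and over both. Slc10a1 was higher in PAE than in control stroke livers by log2 0.39 ± 0.123 (SE; interval 0.14 to 0.64), a difference that failed the correction (edgeR adjusted p = 0.642), with 8 of 8 PAE stroke livers above the control mean of their sex.

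Among males after stroke, Slc10a1 stood at 238, 161 and 274 CPM in controls and at 294, 370, 339 and 337 CPM in PAE animals, with no overlap. Nuclear ribosomal RNA took 17.9% to 51.1% of counts in these control males. In the PAE males it took 1.09% to 2.14%, except for PAE stroke male 2 (42.4%). The clock gene Dbp did not overlap between these males either, at 3.3 to 5.83 CPM in controls and 21 to 44.3 CPM in PAE animals. With group means removed, Slc10a1 and Dbp over the 30 livers gave Pearson r = -0.491 (permutation p = 0.0257, adjusted p = 0.239), which did not pass. The part of Dbp or of ribosomal RNA in the difference between these male groups was not tested. For Cyp7a1 the PAE effect was 0.8 ± 0.634 in naive livers (interval -0.51 to 2.11) and 0.65 ± 0.628 in stroke livers (interval -0.65 to 1.95). These intervals leave room for differences of several-fold, whereas those of Baat (-0.22 to 0.27 in naive livers) and Nr1h4 (-0.31 to 0.27) were narrower. The PAE effect in males minus that in females passed for 0 of the 10 genes with edgeR or DESeq2, with 0 at an unadjusted p under 0.05, and 0% of all genes passed with edgeR. Of the 15 clock genes 0 passed this test and 9 had an unadjusted p under 0.05, against 1315 of the 15889 genes tested, and their part in the PAE comparisons was not tested.

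**Figure D3:**
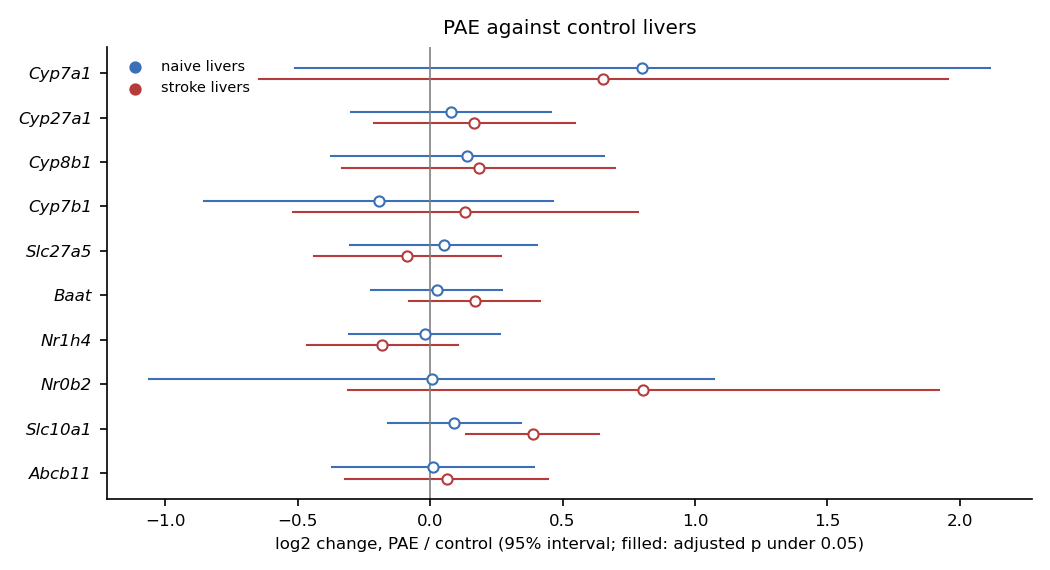
Log2 change of each of the 10 genes in PAE against control livers (x axis), in naive (blue) and stroke (red) animals, with lines for the 95% interval. All points are open, since no gene reached an edgeR adjusted p under 0.05, and the intervals of Cyp7a1 and Nr0b2 were the widest.

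Male livers were compared with female livers over all 4 exposure and stroke groups. Of the 10 genes 6 passed, 3 higher and 3 lower in males, where 32.5% of all genes passed (16% higher and 16.5% lower). The largest difference among them was in Cyp7b1, which hydroxylates oxysterols in the alternative pathway.

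Cyp7b1 was 5.06-fold higher in males (log2 2.34 ± 0.229 SE, edgeR adjusted p = 1.03e-08). It ran from 2.29 to 5.75 CPM (median 3.61) in the 16 females and from 6.83 to 54.2 CPM (median 13) in the 14 males, so the sexes did not overlap. Among PAE stroke males the values were 11.2, 24.4, 27.5 and 54.2 CPM, and among PAE naive males 9.69, 8.04, 13.5 and 12.6 CPM.

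The bile acid receptor gene Nr1h4 (log2 0.47 ± 0.0987 SE, edgeR adjusted p = 0.000522) and Baat (0.4 ± 0.0851, adjusted p = 0.000641) were also higher in males. Nr1h4 ran from 36.7 to 80.4 CPM (median 60.1) in females and from 59.2 to 115 CPM (median 76) in males. Baat ran from 481 to 895 CPM (median 688) in females and from 640 to 1202 CPM (median 922) in males, so both genes overlapped between the sexes. These 3 calls held in 30 of 30 fits that each left out 1 library. The male mean of Baat was higher in naive livers (1003 against 660 CPM) and in PAE stroke livers (932 against 685 CPM). In control stroke livers it was not (690 CPM in males against 732 CPM in females).

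Lower in males were Cyp27a1, the mitochondrial sterol hydroxylase (log2 -0.42 ± 0.132 SE, edgeR adjusted p = 0.0158), Slc27a5 (-0.35 ± 0.123, adjusted p = 0.0291) and Slc10a1 (-0.25 ± 0.0866, adjusted p = 0.0274). Without the 3 libraries over 40% ribosomal RNA, all of them male, Cyp27a1 (-0.38, edgeR adjusted p = 0.0695) and Slc27a5 (-0.35, adjusted p = 0.0546) no longer passed. The levels of Slc10a1 in the naive state were 278 ± 37.8 CPM in females (SD, n = 8) and 292 ± 36.5 CPM in males (SD, n = 7). After stroke they were 404 ± 60.1 CPM in females (SD, n = 8) and 288 ± 71.3 CPM in males (SD, n = 7), so the lower male mean was seen in stroke livers, while the test of male against female responses did not pass. Cyp7a1 (-0.95 ± 0.449, adjusted p = 0.111), Cyp8b1 (-0.36 ± 0.178, adjusted p = 0.119), Abcb11 (-0.2 ± 0.133, adjusted p = 0.245) and Nr0b2 (0.054 ± 0.373, adjusted p = 0.93) did not pass.

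Some cell type markers also differed between the sexes. The summed level of 6 Kupffer cell and macrophage markers ran from 188 to 427 CPM in females and from 91.8 to 350.2 CPM in males, and that of 7 cholangiocyte markers from 3.87 to 8.3 CPM and from 7.86 to 16.2 CPM. Of these lists 4 of 6 Kupffer cell markers were lower in males, and of 6 cholangiocyte markers tested 2 were higher and 1 was lower. Over all genes tested 32.5% passed by sex (16% higher and 16.5% lower). Of 5 endothelial markers 3 were lower, with sums of 435 to 880.03 CPM in females and 266 to 651 CPM in males, and 1 of 5 stellate cell markers was lower. Of the 8 hepatocyte markers 1, Ttr, was higher and 1, Cyp2e1, was lower. The shares of stellate cell and hepatocyte markers that passed were below that of all genes. Exocrine pancreas markers summed to 17.6 to 165 CPM in females and 0.101 to 0.857 CPM in males, almost all from Cpa1, while Pnlip was at 0 in 30 libraries. Their part in the sex differences was not tested.

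**Figure D4:**
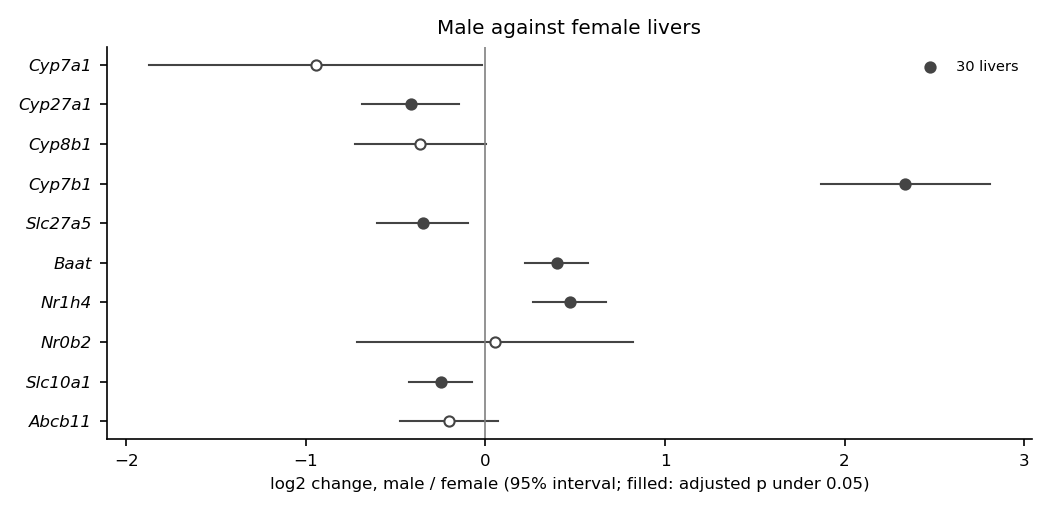
Log2 change of each of the 10 genes in male against female livers (x axis), with lines for the 95% interval and filled points at an edgeR adjusted p under 0.05. Cyp7b1 stands apart at 2.34, with Nr1h4 and Baat on the same side and Cyp27a1, Slc27a5 and Slc10a1 on the other.

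Other genes of the pathway were read from lists of synthesis enzymes, transporters and regulators. After stroke, over both exposures and sexes, 4 of 10 other synthesis enzymes tested were higher, 2 were lower and 4 did not pass, where 8.55% of all genes were higher and 5.84% lower, with a median log2 change of 0.069 against -0.0083 over all genes. Higher were the side-chain oxidase Acox2 (0.71 ± 0.0961 SE, edgeR adjusted p = 7.26e-06), the peroxisomal thiolase Scp2 (0.45 ± 0.066, adjusted p = 2.24e-05), and the steroid reductases Akr1d1 (0.54 ± 0.117, adjusted p = 0.00215) and Akr1c14 (0.27 ± 0.09, adjusted p = 0.0398). Lower were Hsd3b7, an early ring-modifying dehydrogenase (-0.47 ± 0.111, edgeR adjusted p = 0.00423), and the racemase Amacr (-0.48 ± 0.134, adjusted p = 0.0138). Acox2 ran from 272 to 524 CPM in naive and from 463 to 793 CPM in stroke livers, and 15 of 15 stroke livers exceeded the mean of the matching naive group. Akr1d1 in females ran from 207 to 366 CPM in naive and from 262 to 382 CPM in stroke livers. In males Akr1d1 ran from 1008 to 1459 CPM in naive and from 1638 to 3875 CPM in stroke livers. Of the 10 enzymes 1 passed within females and 5 within males, where 5.93% and 5.75% of all genes did.

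Of 12 other transporters tested 2 were lower, 10 did not pass and the median log2 change was -0.23. That is a share near the 14.4% of all genes that passed. The lower ones were the sinusoidal uptake carrier Slco1b2 (-0.31 ± 0.0938 SE, edgeR adjusted p = 0.0259) and the canalicular phospholipid exporter Abcb4 (-0.45 ± 0.137, adjusted p = 0.0263). Within males, where 2.35% of all genes were lower after stroke, 2 further transporters of the 12 were lower. They were the basolateral exporter Abcc3 (-1.42 ± 0.363, edgeR adjusted p = 0.0188) and the uptake carrier Slco1a4 (-1.38 ± 0.374, adjusted p = 0.0267). Their changes in females were 0.13 ± 0.315 and 0.15 ± 0.339. A test of male against female responses passed for no gene of the 3 lists with edgeR. At an unadjusted p under 0.05 there were 5 of 10 synthesis enzymes, 6 of 12 transporters and 1 of 17 regulators. Of all 15889 genes tested 1158 reached that level.

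Among 17 regulators tested 5 were higher, 2 were lower and 10 did not pass, with a median log2 change of 0.19, where 14.4% of all genes passed. The largest increase was in the transcriptional coactivator Ppargc1a (2.34 ± 0.354 SE, edgeR adjusted p = 7.67e-05), from 1.84 to 8.98 CPM in naive livers to 6.02 to 76.7 CPM after stroke. Klb, which encodes a co-receptor of the gut hormone that represses Cyp7a1, was also higher (0.78 ± 0.121, edgeR adjusted p = 3.92e-05). So were Nr5a2, a nuclear receptor that activates Cyp7a1 and Cyp8b1 (0.51 ± 0.0916, adjusted p = 0.000251), and Rxra, the partner of FXR (0.38 ± 0.097, adjusted p = 0.00805). The fifth was Zfp36l1, an mRNA decay factor known in mouse to lower Cyp7a1 mRNA (0.58 ± 0.147, edgeR adjusted p = 0.00745). Lower were the xenobiotic receptor Nr1i3 (-1.25 ± 0.256, edgeR adjusted p = 0.0015) and Mafg, known in mouse as a repressor of bile acid synthesis genes (-0.34 ± 0.0812, adjusted p = 0.00412).

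**Figure D5:**
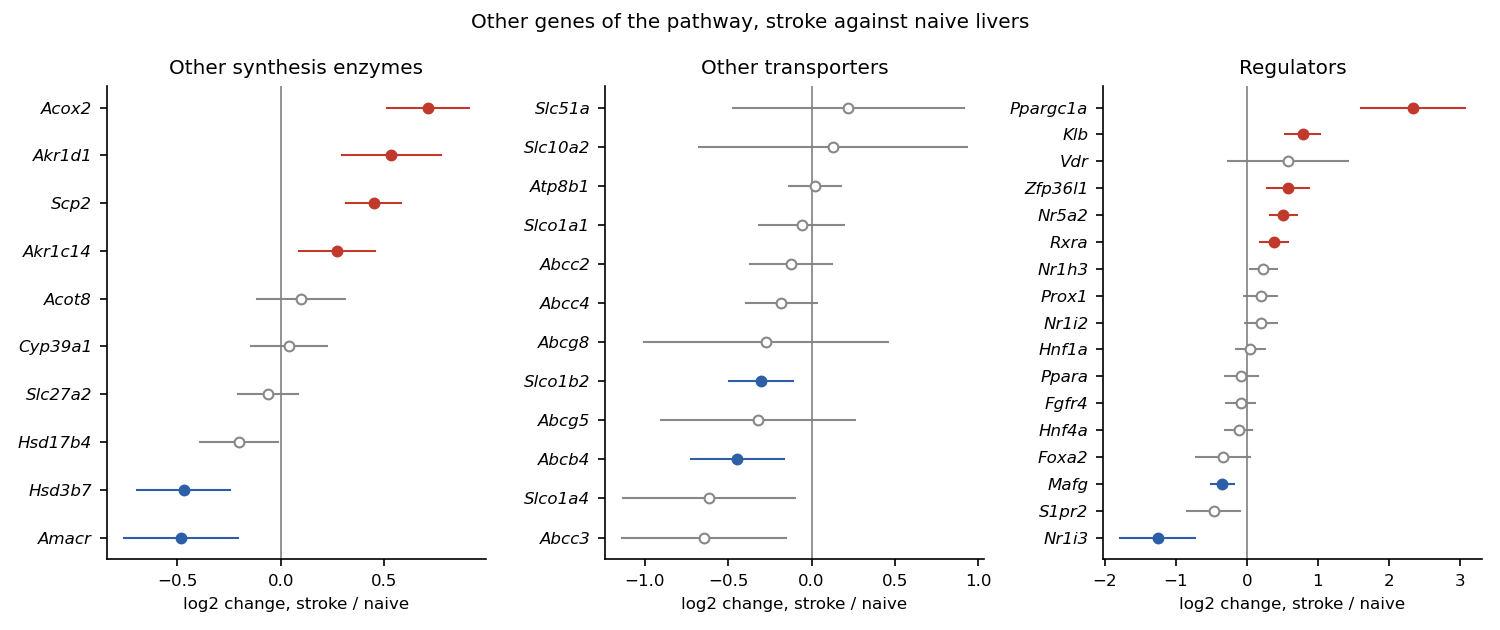
Log2 change in stroke against naive livers (x axis) of the other synthesis enzymes, transporters and regulators tested, with lines for the 95% interval. Filled points passed at an edgeR adjusted p under 0.05, red for higher and blue for lower. Ppargc1a, at 2.34, and Nr1i3, at -1.25, lie farthest from 0 among the filled points.

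By sex, 32.5% of all genes passed, and the shares of synthesis enzymes and regulators were near that. Of the 10 other synthesis enzymes 4 passed, with Akr1d1 5.96-fold higher in males (log2 2.58 ± 0.121 SE, edgeR adjusted p = 1.93e-16). It ran from 207 to 382 CPM in females and from 1008 to 3875 CPM in males. Akr1c14 (-0.63), Amacr (-0.53) and Scp2 (-0.18) were lower in males. Of the transporters 7 of 12 passed: Abcc3 (-1.45), Abcc2 (-1.19), Abcg8 (-1.06), Slco1b2 (-0.87) and Abcb4 (-0.51) were lower in males, and Abcc4 (0.53) and the ileal-type uptake carrier Slc10a2 were higher. Slc10a2 reached no more than 2.19 CPM and was at 0 in 8 libraries. Of the regulators 6 of 17 passed: Nr1i3 (2.61), S1pr2 (1), Ppara (0.6) and Mafg (0.24) were higher in males, and Vdr (-1.79) and Ppargc1a (-0.99) were lower.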

How the data were processed

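Total RNA was depleted of ribosomal RNA and sequenced as stranded libraries, per the labels' protocols. The submitters' processing notes name Trimmomatic, HISAT2, HTSeq, DESeq2 and the assembly rn7 for the authors' processing, and tool versions are not given in the sources used here. The deposited files hold raw read counts per gene symbol. The authors' deposited comparison tables give a log2 fold change and a p-value per gene, and the 90 columns of normalised counts beside them were not used.

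Liver counts (15889 genes after filterByExpr, minimum count 10) were fitted with edgeR 4.0.16 in R 4.3.3, with TMM scaling, 8 group means and robust quasi-likelihood. Contrasts weighted groups equally, tests were two-sided, and p-values were adjusted by Benjamini-Hochberg over all genes. CPM use TMM-scaled library sizes, and log2 CPM a prior count of 2. Alternatives were DESeq2 1.42.0, RLE scaling, no filter, nuclear rRNA left out, no libraries over 40% nuclear rRNA, a fit on the groups compared, no sex term, a replicate block, and each library left out. Scripts were tested on simulated data. Correlations used deviations from group means with 100000 permutations within groups. The 42 pairs of liver libraries of 1 group differed by 27.4 to 772 times the counting variance (chi-square per degree of freedom), so none was a copy.

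The members, lists and motifs were chosen with earlier results of these data known. Named were all members, from each list up to 6 called genes of smallest p in the stroke comparison with genes called the other way and those called elsewhere, and the 5 genes most correlated with Cyp7a1, Cyp8b1 and Nr0b2. Clock and cell type genes were named after their values were seen. Fgf15 and Bmal1 are not symbols of the files, and Cyp46a1, Ch25h, Slc51b and Gpbar1 did not pass the filter. The assembly of the promoters is not the authors' and served for sequences only.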

Additional observations from a re-analysis of the deposited data

Results flagged for a closer look

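Of the 60 combinations of a gene and a group of 4 livers, 3 held an animal far from the other 3 on the log2 CPM scale, by a gap that chance gives in about 1 in 20 groups. Cyp27a1 stood at 353 CPM in control stroke female 1, against 509 to 529 CPM in the other control stroke females, and Cyp7a1 was lowest in the same animal, at 36.9 CPM. Cyp7b1 stood at 2.44 CPM in PAE naive female 1, against 3.64 to 3.9 CPM in the others. Abcb11 stood at 453 CPM in PAE stroke male 2, a library with 42.4% nuclear ribosomal RNA, against 798 to 811 CPM in the others. On the CPM scale itself 4 of the 60 did: the animals named for Cyp27a1 and Abcb11, and Cyp7a1 in PAE naive female 3 (323 CPM) and PAE naive male 3 (160 CPM).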

How the results depend on the processing

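The increase of Cyp7a1 over both exposures passed in 30 of 30 fits without 1 library (edgeR adjusted p from 5.57e-05 to 0.00488) and in 7 of 7 other settings. No called change of a member reversed its sign among 4440 refitted values (each gene, comparison and setting), while 149 changes that passed in neither fit did. Of the 120 main values only 14 were called, and 30 of the settings left out just 1 library, so few reversals could occur. For stroke over both exposures, 2 genes passed, 1 with nuclear rRNA left out, without the filter or without the sex term, and 4 with DESeq2, which added Cyp7b1 and Slc10a1. For stroke in controls, 0 passed and 1 with DESeq2. For stroke in PAE, 2 passed, 1 with rRNA left out, without the libraries over 40% rRNA, in the fit on the groups compared or with the replicate block, and 0 without the filter or the sex term. Without the filter, 1 in place of 3 passed in females and 0 in place of 1 in males. Of the correlations 2 in place of 0 passed without the libraries over 40% rRNA, Slc27a5 with Slc10a1 (r = 0.69, adjusted p = 0.0149) and Slc10a1 with Abcb11 (r = 0.642, adjusted p = 0.0085). The cause of these shifts was not tested. Leaving out 1 library gave 1 to 3 genes for stroke over both exposures, 0 to 1 in controls, 0 to 2 in PAE, 1 to 3 in females, 0 to 2 in males and 4 to 7 by sex, and 0 to 0 in every comparison of PAE with control and every test of a difference between responses.

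The stroke call of Cyp7a1 in PAE was lost without any 1 of PAE naive females 1, 2 and 4 and PAE naive males 1, 2 and 4 (edgeR adjusted p from 0.0527 to 0.0639). In females that of Cyp7a1 was lost without any 1 of control naive 1, 2 and 3, PAE naive 1, 2 and 4, control stroke 2 and 3, and PAE stroke 1 and 2 (0.0539 to 0.0749). In males it was lost without any 1 of control naive 2 and 3, PAE naive 1, 2 and 4, and control stroke 2 and 3 (0.0526 to 0.0971). Cyp8b1 in females lost its call without any 1 of control naive 3 and 4, PAE naive 2 and 3, control stroke 2 and 4, and PAE stroke 3 (0.0502 to 0.0757). Slc27a5 after stroke passed in 14 of 30 such fits (highest adjusted p 0.114, without control stroke male 3) and Slc10a1 in PAE in 11 (highest 0.0952, without PAE naive female 3). By sex, Slc27a5 was lost without control naive male 1, PAE naive female 4, control stroke male 1 or 2 (0.0502 to 0.0639), and Slc10a1 without control naive male 1, control stroke female 3 or control stroke male 2 (0.0525 to 0.0688). Calls gained were Cyp7a1 in controls without any of 6 libraries (0.0212 to 0.0491), Cyp7b1 over both exposures without any of 4 (0.00841 to 0.0495) and in males without control naive male 3 or PAE stroke male 1 (0.0133 and 0.045), Slc10a1 over both exposures without control stroke female 2 or male 2 (0.0449 and 0.0237), Cyp8b1 over both exposures without control stroke male 3 (0.0396), and by sex Cyp7a1 without PAE naive male 3 (0.0329) and Cyp8b1 without control naive male 1 or control stroke male 3 (0.0288 and 0.0419).

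The labels do not say whether replicate numbers pair animals. The 29 pairs of same-numbered livers correlated from -0.327 to 0.375 (median 0.0934), 14 of them over 0.1. Livers of different number were not correlated in this way, so these values cannot show whether the numbers pair animals. By groups, all 4 pairs of PAE naive and PAE stroke males were over 0.1 (0.206 to 0.285), and 3 of 4 pairs of PAE females were (-0.0302 to 0.375). With the replicate block, Cyp8b1 in females (adjusted p = 0.067) and Slc10a1 in PAE (0.0692) did not pass and Cyp7b1 over both exposures did (0.0421). The block is nested in sex, so it was not run for male against female. Depth limits Cyp7b1 and Nr0b2 most, and intervals cover these animals only.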

Other observations

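After the group means were removed, the genes whose levels followed Cyp7a1 most closely over the 30 livers, of 11395 tested, were Pkp2 (r = 0.811), Homer1 (0.781), Ddx5 (0.713), Gtf2e1 (0.706) and Utp20 (0.701). For Nr0b2 they were Ca5a (0.798), Apof (0.734), Ltbp3 (0.73), Bcl2l1 (0.729) and Irgq (0.712). For Cyp8b1 they were Acp2 (0.696), Hipk2 (0.69), Mmachc (0.69), Creb3l3 (0.689) and Cpn2 (0.686). These values rank genes and carry no test.

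Among 85 relations of the members with each other, with depth, with the share of nuclear ribosomal RNA and with the clock genes Dbp and Nr1d1, 0 passed the correction. The strongest joined Baat and Nr1h4 (Pearson r = -0.697, permutation p = 0.00091, adjusted p = 0.0773; Spearman rho = -0.623, p = 0.00153, adjusted p = 0.0776), with r = -0.507 without the 2 farthest livers. Cyp7a1 against Nr1d1 gave r = -0.472 (permutation p = 0.0296, adjusted p = 0.239; rho = -0.401, p = 0.056, adjusted p = 0.346), and r = -0.377 without the 2 farthest livers. Other members had clock relations of smaller permutation p. These were Abcb11 with Dbp (r = -0.305, p = 0.00907, adjusted p = 0.154), Cyp27a1 with Nr1d1 (r = -0.459, p = 0.0113, adjusted p = 0.16) and Slc10a1 with Dbp (r = -0.491, p = 0.0257, adjusted p = 0.239). Against the share of ribosomal RNA, Cyp7a1 gave r = -0.011 (permutation p = 0.95, adjusted p = 0.95; rho = 0.00022, p = 1, adjusted p = 1), and r = -0.094 without the 2 farthest livers.

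In the 30 mesenteric adipose libraries, which entered no comparison, Cyp27a1 stood at 8.39 to 17.9 CPM and Cyp7b1 at 2.07 to 8.87 CPM. Cyp7a1 reached at most 4 counts and Nr0b2 at most 5 in any adipose library.

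In the authors' deposited table for stroke in room air controls, Cyp7a1 has a log2 fold change of 1.22 with an adjusted p of 0.00118. In the authors' deposited table for stroke in PAE animals it has 1.14 with no p-value listed, while Slc10a1 has 0.35 (adjusted p = 0.0187) and Cyp7b1 0.69 (adjusted p = 0.0429). For Cyp7a1 both values lie well below the log2 changes fitted here (2.42 in controls and 2.27 in PAE). The cause of this gap was not tested.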
